A study of Caenorhabditis elegans with 2 samples.

Results

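The 276 nuclear tRNA genes that the Ensembl annotation places on chromosome X of Caenorhabditis elegans are described here by the ChIP signal of the T-box factor TBX-8 over them. They were taken as all genes of biotype tRNA on X, and they make up 45.1% of the 612 nuclear tRNA genes, the other 336 lying on the autosomes. A gene was given every deposited region whose summit, the position of highest signal in the region, fell in the gene body or within 200 bp of either end, and genes without a region stayed in. The measurements come from chromatin immunoprecipitation and sequencing (ChIP-seq) in 2 biological replicates of 1 group. The worms, of the strain named RW10470, carry the insertion st10470. It adds TBX-8 joined to TY1, EGFP and 3xFLAG tags together with a working unc-119(+), in a background with the mutation unc-119(ed3). TBX-8 was thus precipitated through its tag, by an anti-GFP antibody. Whole embryos of both sexes were used, with an age of 2.5 hours in the labels. There was no second strain, stage or treatment, and the lists hold no marker that could check the cell types present. Binding in few cells and weak binding in all cells cannot be told apart in such material.

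tRNA genes are read by RNA polymerase III from promoters that lie inside the gene. The factor TFIIIC binds a pair of internal elements, the A box near the 5′ end and the B box near the 3′ end, and places TFIIIB, which holds the TATA-binding protein, just upstream of the start. Transcription ends at a run of T after the gene. In ChIP experiments in several organisms, actively read tRNA genes are among the sites where unrelated transcription factors are often recovered. TBX-8 is a T-box protein that works together with its close relative TBX-9 in shaping the worm embryo.

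The internal promoters of the genes discussed most are shown first, since the gene body is what separate copies share. Each is a gene body on WBcel235 (the assembly also called ce11), 5′ to 3′ along the gene, from RefSeq's genome sequence, with the A box and the B box in capitals.
C04A11.t1 (chrX:13665555-13665673, plus strand): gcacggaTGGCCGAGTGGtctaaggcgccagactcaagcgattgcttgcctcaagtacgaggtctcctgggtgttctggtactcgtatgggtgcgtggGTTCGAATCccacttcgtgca
C33G3.t2 (chrX:14063946-14064018, minus strand): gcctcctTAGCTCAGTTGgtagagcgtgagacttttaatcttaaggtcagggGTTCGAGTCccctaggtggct
ZK899.t1 (chrX:9467729-9467800, minus strand): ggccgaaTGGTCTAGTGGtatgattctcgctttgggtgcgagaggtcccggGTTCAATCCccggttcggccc
C02B4.t2 (chrX:12665228-12665311, plus strand): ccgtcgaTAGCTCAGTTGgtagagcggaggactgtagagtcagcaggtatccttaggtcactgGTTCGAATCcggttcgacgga
C06G1.t1 (chrX:16634830-16634901, minus strand): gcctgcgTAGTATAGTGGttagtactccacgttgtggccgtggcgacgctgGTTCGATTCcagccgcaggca
C16B8.t2 (chrX:3970096-3970167, plus strand): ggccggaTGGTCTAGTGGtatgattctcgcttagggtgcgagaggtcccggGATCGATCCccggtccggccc
C04A11.t1 is a Leu gene with an intron and the highest signal on X, and C33G3.t2 (Lys), ZK899.t1 (Pro), C02B4.t2 (Tyr) and C06G1.t1 (His) each have identical copies elsewhere on X. The last, C16B8.t2 (Pro), carries the variant GATCNANNC in place of the usual B box GTTCNANNC.

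What differs between identical copies is the sequence around them. The following are the 100 bases that end directly before the 5′ end of 12 genes, read along the gene on WBcel235, with GAGAGA and its reverse complement TCTCTC in capitals. They were chosen after their values were seen, as high genes of X and identical copies of them with and without a region. This flank is printed because words were counted in it.
C04A11.t1 (chrX:13665455-13665554, plus strand): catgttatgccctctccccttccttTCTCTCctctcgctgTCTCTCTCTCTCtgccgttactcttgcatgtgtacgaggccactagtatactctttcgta
C33G3.t2 (chrX:14064019-14064118, minus strand): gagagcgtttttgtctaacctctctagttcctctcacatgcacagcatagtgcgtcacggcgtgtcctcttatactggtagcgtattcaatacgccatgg
ZK899.t1 (chrX:9467801-9467900, minus strand): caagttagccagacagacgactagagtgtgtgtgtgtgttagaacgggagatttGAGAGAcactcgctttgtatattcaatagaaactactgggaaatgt
H06A10.t1 (chrX:13512042-13512141, minus strand): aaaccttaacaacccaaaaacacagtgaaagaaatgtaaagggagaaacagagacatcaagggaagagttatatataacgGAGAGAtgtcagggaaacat
R04D3.t3 (chrX:13307930-13308029, plus strand): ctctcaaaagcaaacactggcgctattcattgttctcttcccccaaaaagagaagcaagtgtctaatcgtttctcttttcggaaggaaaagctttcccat
ZK678.t3 (chrX:15751320-15751419, plus strand): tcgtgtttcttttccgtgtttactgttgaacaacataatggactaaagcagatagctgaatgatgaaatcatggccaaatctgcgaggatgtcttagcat
C06G1.t1 (chrX:16634902-16635001, minus strand): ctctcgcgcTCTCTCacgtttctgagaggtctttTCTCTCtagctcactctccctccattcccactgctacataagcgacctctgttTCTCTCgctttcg
C49F5.t1 (chrX:11993593-11993692, minus strand): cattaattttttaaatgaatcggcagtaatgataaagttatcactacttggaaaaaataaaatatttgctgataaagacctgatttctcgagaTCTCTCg
F28H6.t2 (chrX:14134945-14135044, plus strand): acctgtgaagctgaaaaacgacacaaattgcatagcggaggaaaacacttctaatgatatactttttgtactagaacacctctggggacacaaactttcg
C02B4.t2 (chrX:12665128-12665227, plus strand): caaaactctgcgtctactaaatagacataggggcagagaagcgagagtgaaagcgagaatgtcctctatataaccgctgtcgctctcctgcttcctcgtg
R11.t1 (chrX:16209853-16209952, minus strand): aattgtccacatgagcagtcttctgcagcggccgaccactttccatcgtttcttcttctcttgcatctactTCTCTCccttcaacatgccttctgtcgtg
R11.t2 (chrX:16209312-16209411, minus strand): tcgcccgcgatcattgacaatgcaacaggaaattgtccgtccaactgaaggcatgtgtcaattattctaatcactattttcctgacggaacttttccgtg
The word stood in 6 of these 12 flanks, in 5 genes with a thresholded peak and in C49F5.t1, a His copy with no pooled region. Of the 6 flanks without it, 2 belonged to genes with a peak (C33G3.t2 and C02B4.t2) and 4 to genes with no pooled region. The 12 flanks are examples, and the counts over all genes are given with the sequence words.

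The lists behind the values were of 2 kinds. The thresholded list holds 521 peaks that passed the authors' test of agreement between the replicates. The pooled list (16355 regions) and the lists of replicate 1 (24167 regions) and replicate 2 (20865 regions) also hold weak regions, kept in on purpose by the authors. Signal is the peak caller's strength of a region in arbitrary units, not scaled between lists, and it was compared only within a list. The pooled list has no replicates of its own, and the read depth behind each list is unknown.

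TBX-8 signal lay over part of the tRNA genes of X at the authors' threshold. A thresholded peak was found at 71 of the 276 genes (25.7%, 95% Wilson interval 20.9 to 31.2%, which covers counting error only), and these genes took 64 of the 126 thresholded peaks of X. Over all tRNA genes the share was 22.7%, over all annotated genes with the same flank 1.61%, and over consecutive 472 bp tiles of X, the median length of a gene with its flanks, 0.328%. A pooled region was found at 137 genes (49.6%, 43.8 to 55.5%), where the share was 51.3% over all tRNA genes, 20.9% over all annotated genes and 6.7% over the tiles. Of the 71 genes, 14 shared their peak with a neighbouring tRNA gene, and sharing genes are not independent observations.

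The members with a region were also the stronger ones of their list. Their median signal in the pooled list was 83.2, with a range from 27.6 to 324, against a median of 34.6 over all pooled regions. Of the 100 pooled regions with the highest signal, 20 lay at tRNA genes of X and 9 at tRNA genes of the autosomes. The lowest signal of a member with a thresholded peak was 77.7, at F59C12.t3 (Val), and the highest of a member without one was 75.01, at C11E4.t1 (Ala).

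Both replicates were then read gene by gene. In replicate 1, 143 genes had a region, against 10.1% of the tiles. In replicate 2, 145 genes had one, against 8.85% of the tiles. The genes with a region in both numbered 114 (41.3% of the 276), those in replicate 1 alone 29, those in replicate 2 alone 31, and those in neither 102. Of the 336 autosomal tRNA genes, 146 had a region in both (43.5%). All 71 genes with a thresholded peak had a region in both replicates. The thresholded list itself rests on agreement between the replicates per the labels, so this is no separate evidence. In 96 of the 114 genes the summits of the replicates lay within 100 bp of each other, and the median gap was 34 bp. Over the 114 genes the signals of the replicates had a Spearman correlation of 0.86 (0.70 over 146 autosomal tRNA genes), as a description of genes that share libraries and in part regions. A total of 100 genes had no region in any list.

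**Figure D1:**
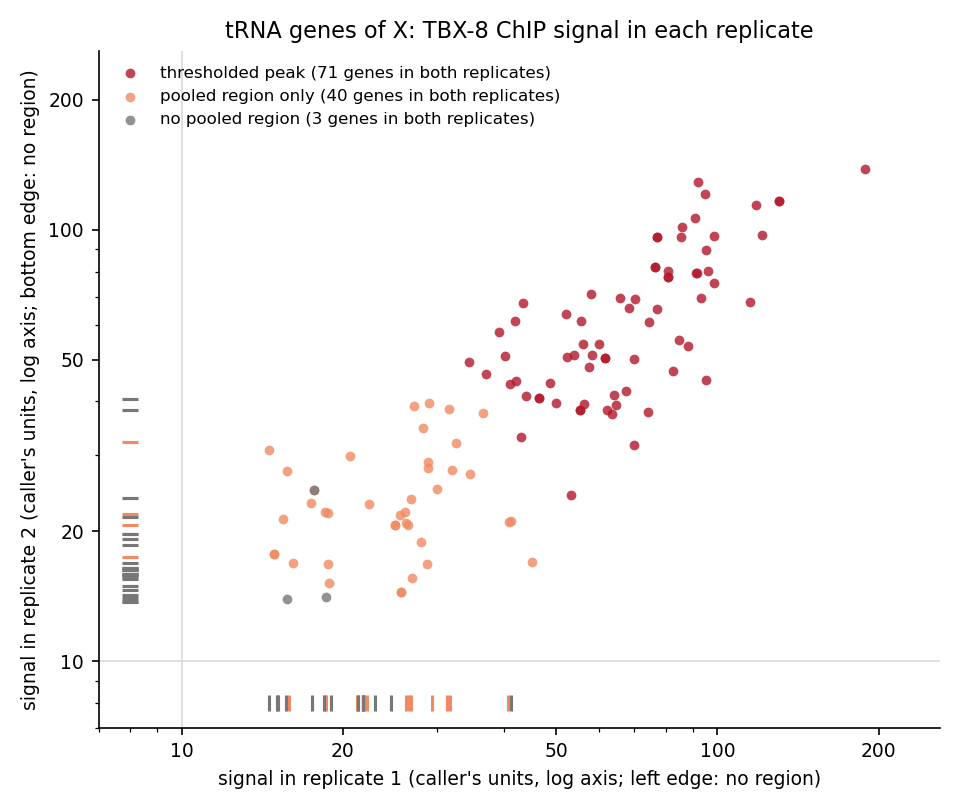
Signal of each tRNA gene of X in replicate 1 (horizontal, caller's units, log axis) and replicate 2 (vertical, log axis), coloured by list. Genes with a region in 1 replicate only are drawn as ticks along the edges. The 71 genes with a thresholded peak lie toward the upper right, and in each replicate their signals overlap those of genes with a pooled region only.

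The 15 genes with the highest pooled signal reached from 175 to 324 and read 12 amino acids. Their signals ran from 85.7 to 189 in replicate 1 and from 67.8 to 138 in replicate 2, and none ranked below place 115 in either list. C04A11.t1, a Leu gene of 119 bp outside any protein-coding gene and without an identical copy, had the highest signal, 324, at place 12 of the pooled list. It gave 189 in replicate 1 and 138 in replicate 2, the highest of any member in both. F15G9.t1 and F15G9.t2, Ala genes 86 bp apart in an intron of him-4, which encodes hemicentin of the extracellular matrix, shared a region of signal 240. That region gave 131 in replicate 1 and 117 in replicate 2.

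Next came F41D9.t3 (Asn, in an intron of sulp-3) with a pooled signal of 234, and 118 and 114 in replicates 1 and 2. C33G3.t2 (Lys) had 225, with 92.1 and 129 in the replicates, and lay 47930 bp from the next tRNA gene. C28G1.t1 (Glu), at 218, was the single member that overlapped an exon of a protein-coding gene, C28G1.2. F41D9.t3 shares its body with 4 other genes of X, of which 2 had no pooled region. C33G3.t2 has 4 identical copies on X and C28G1.t1 has 7, and in each family 1 copy had no pooled region. W03G11.t1 (Lys) had 214, C42D8.t1 (Ile) 202, F17H10.t1 (Gly) 201 and F38G1.t2 (Asp) 196 in the pooled list. F38G1.t2 lies in an intron of egl-17, the fibroblast growth factor that guides migrating muscle precursors, on the opposite strand. The other 5 of the 15 were ZK899.t1 (Pro, 187), F28H6.t1 (Arg, 183), R04D3.t2 (Val, 182), C06G1.t1 (His, 178) and T07H6.t2 (Ala, 175).

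The replicates ranked some members very differently. F59C12.t3 (Val) was at place 295 in replicate 1 and place 2899 in replicate 2, with signals of 53.4 and 24.3. rte-1 (Glu) was at place 1198 in replicate 1 and 247 in replicate 2, and T26C11.t1 (Glu) at place 151 and place 972. F55G7.t2 (Thr) and T06H11.t2 (Arg) ranked higher in replicate 2, at places 300 and 159, than in replicate 1, at places 919 and 761. These 5 had the widest gaps among the 71.

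The members were next ordered by the amino acid their tRNA carries. RefSeq names the product of 273 of them, and the anticodon read from the gene sequence fitted that name in 269. All 20 amino acids had at least 1 gene with a thresholded peak. The share was highest for Ala, at 6 of 13 genes (46.2%, 23.2 to 70.9%), and lowest for Gln, at 1 of 15 (6.67%, 1.19 to 29.8%). The interval of every amino acid included the 25.7% of all members. A pooled region was found at 8 of the 15 Gln genes, with a median signal of 33.6, and 7 had none. Of the 18 Lys genes 2 had a peak (11.1%, 3.10 to 32.8%), with signals of 214 and 225.

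Among the amino acids not yet named, the highest member of Tyr was C02B4.t2 at 172, in an intron of nhr-17. For Met it was C02F12.t1 at 162 and for Trp sup-7 at 146, the gene in which a classic amber suppressor of C. elegans arose. Phe was led by T28B4.t1 at 136 and Thr by R01H5.t1 at 135. Ser was led by E03E2.t1 at 135, in an intron of cat-1, the vesicular monoamine transporter. R04A9.t1 led Gln at 134 and F42D1.t1 led Cys at 117, the lowest of the 20 leaders.

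**Figure D2:**
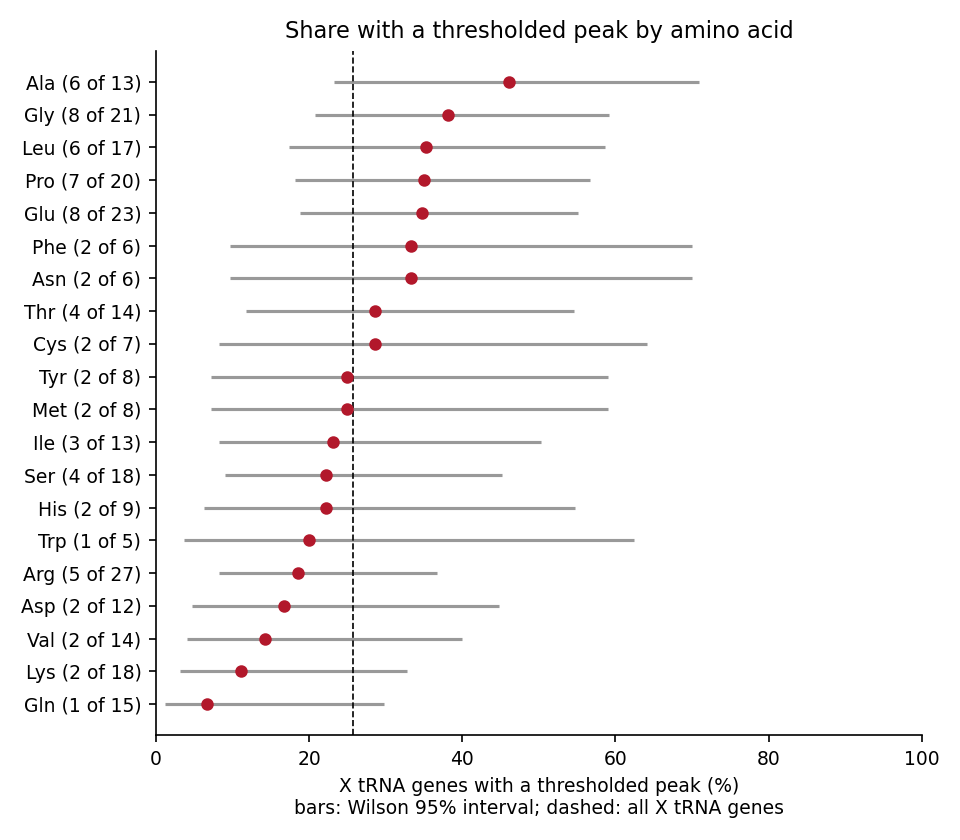
Share of the tRNA genes of X with a thresholded peak (horizontal, %) for each amino acid (vertical, with the number of genes), with 95% Wilson intervals as bars. The dashed line is the 25.7% of all members, and every interval crosses it.

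Identical genes did not have identical signal. The 276 members hold 106 distinct gene bodies, and 219 of them have at least 1 copy with the same body in the genome. Among the 20 bodies with 5 or more copies on X (162 genes), every group held both a gene with a thresholded peak and a gene with no pooled region. In 19 of the 20 groups at least 1 copy had no region in any list. Over all 276 members, 71 had a thresholded peak, 139 had no pooled region and 100 had no region in any list. Whether the groups are more mixed than these shares alone would give was not tested. Reads that lie wholly within such a body cannot be placed on 1 copy, and only reads that reach into the flanks can tell copies apart. The share of 50-base words found once in the genome was 0 in 222 of the 276 gene bodies, and its median over the gene with both flanks was 91.5%.

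Pro genes with the body of ZK899.t1 give the largest group, 13 copies on X of 24 in the genome. ZK899.t1 had 187 in the pooled list, with 85.7 in replicate 1 and 102 in replicate 2. F46G11.t1 and F46G11.t2, which point away from each other and share a region, had 163, with 81.0 and 77.6 in the replicates. H06A10.t1 had 104, with 58.3 and 51.3. Another 3 copies had weak pooled regions, and 6 had none, of which R04D3.t3 and ZK678.t3 had no region in any list. Of the flanks printed above, those of ZK899.t1 and H06A10.t1 carry GAGAGA within 100 bases of the gene and those of R04D3.t3 and ZK678.t3 do not, though R04D3.t3 carries it farther up, within 200 bases.

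The 6 identical Tyr genes are all on X. C02B4.t2 had 172 (91.8 in replicate 1, 79.3 in replicate 2) and R11.t1 had 107 (64.0 and 41.4), while R11.t2, R11.t3, R11.t4 and F56F10.t1 had no region in any list. All 9 copies of the Leu gene C04E7.t1 are also on X. C04E7.t1 had 134 and F14B8.t1 100 in the pooled list, and the other 7 had no pooled region. Of 8 His copies on X, C06G1.t1 had 178 (98.5 and 75.1), F28H6.t5 had 32.1 with a region in replicate 1 only, and 6 had no pooled region. The Arg body with 10 copies, all on X, had 3 thresholded peaks with a highest signal of 104.

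**Figure D3:**
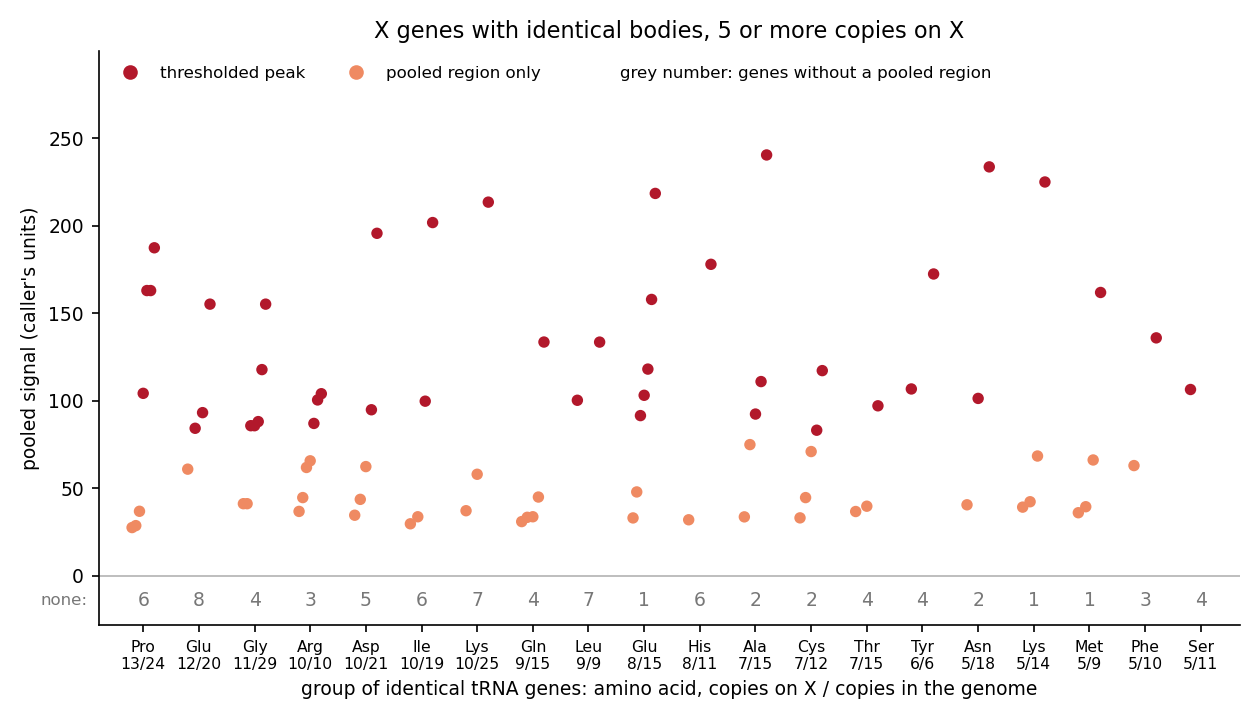
Pooled signal (vertical, caller's units) of the genes in the 20 groups of identical tRNA genes with 5 or more copies on X, each column labelled by amino acid and by copies on X over copies in the genome. Grey numbers count the copies without a pooled region, and every column has at least 1 such copy and at least 1 thresholded peak.

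Genes whose body occurs once in the genome had a peak less often than genes with identical copies. A thresholded peak was found at 6 of 57 single-copy genes (10.5%, 4.91 to 21.1%) and at 65 of 219 genes with copies (29.7%, 24.0 to 36%), a difference of -19.2 percentage points (Newcombe interval -27.6 to -7.14). On the autosomes the values were 15 of 86 (17.4%, 10.9 to 26.8%) and 53 of 250 (21.2%, 16.6 to 26.7%). Of the 6 single-copy genes with a peak, C04A11.t1 had the highest signal of all members. C16B8.t2 and C16B8.t3, Pro genes with the variant B box, shared a region of signal 170.

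tRNA genes of X lie close together, and genes near another had fewer peaks. Of the 141 members with no other tRNA gene within 1 kb, 47 had a thresholded peak (33.3%, 26.1 to 41.5%), and of the 135 with such a neighbour 24 had one (17.8%, 12.2 to 25.1%). The difference was 15.6 percentage points (Newcombe interval 5.26 to 25.4). The median distance to the next tRNA gene was 5672 bp for members with a peak, 1079.5 bp for those with a pooled region only and 749 bp for those without a pooled region. On the autosomes the shares were 52 of 235 (22.1%, 17.3 to 27.9%) without a neighbour and 16 of 101 (15.8%, 9.99 to 24.2%) with one.

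The largest groups differed in how many of their genes had a region. Of the 6 genes F22F1.t2 to F22F1.t7, spread over 2263 bp, F22F1.t6 (Met) had a pooled signal of 143 (95.3 in replicate 1, 44.8 in replicate 2), and the other 5 had no pooled region. The 6 His genes F28H6.t2 to F28H6.t7 had 1 weak region between them, at F28H6.t5. In that array the unique share of 50-base words ran from 8.51 to 88.7%, and how the authors placed reads in repeats is not stated. In the K01A12 group of 5 Arg and Cys genes 3 had a pooled region, with signals of at most 44.7, and in the H08J11 group of 5 Gln genes 3 had one, at most 45.1. Neither group had a thresholded peak. Of the 4 Tyr genes of the R11 group, R11.t1 had a peak, and it lies at the upstream end of the tandem row.

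The share with a peak was not the same in every stretch of X, though most bins hold few genes and their spread was not tested. In bins of 2 Mb it ran from 5 of 34 genes at 16 to 18 Mb to 8 of 16 at 2 to 4 Mb, and it was also low at 14 to 16 Mb, with 6 of 34. The stretch from 8 to 10 Mb holds 71 of the 276 members, of which 11 had a thresholded peak. Elsewhere on X 60 of 205 had one, a difference of -13.8 points (Newcombe interval -23.1 to -2.08). In that stretch 62.0% of the members had a tRNA neighbour within 1 kb, against 44.4% elsewhere. The part of such neighbours in the difference was not tested. Position relative to protein-coding genes was counted next. Of the 95 genes inside an intron 21 had a peak (22.1%, 14.9 to 31.4%), against 49 of the 180 outside protein-coding genes (27.2%, 21.2 to 34.1%), with a difference of -5.12 points (-15.1 to 5.97). Among intronic genes, those on the strand opposite to the host had a peak in 13 of 45 cases (28.9%, 17.7 to 43.4%) and those on the same strand in 8 of 50 (16%, 8.34 to 28.5%).

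At thresholded peaks most summits fell on the gene itself. Over the 71 genes with a thresholded peak the median summit lay 17 bp into the gene (order-statistic interval 10 to 37 bp), and 44 of the 71 (62.0%) lay between the ends of the gene. Spread evenly over the window, 15.7% would lie there. Of the other 27, 17 lay upstream and 10 downstream. The 14 genes that share a peak with a neighbour were each counted. In 222 of the 276 gene bodies no 50-base word is unique, and how reads there were placed is not stated. The interval of the median includes the middle of a gene of the median length, 72 bp. Over all 137 genes with a pooled region the median was again 17 bp, and in the replicate lists it was 23 bp in replicate 1 and 30 bp in replicate 2. The summit lay inside the gene in 68 of these 137 genes (49.6%), in 66 of 143 in replicate 1 (46.2%) and in 58 of 145 in replicate 2 (40%). Over the 68 autosomal genes with a thresholded peak the median was 19.5 bp, and the summit lay inside the gene in 34. Autosomal genes that share a peak were each counted too.

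**Figure D4:**
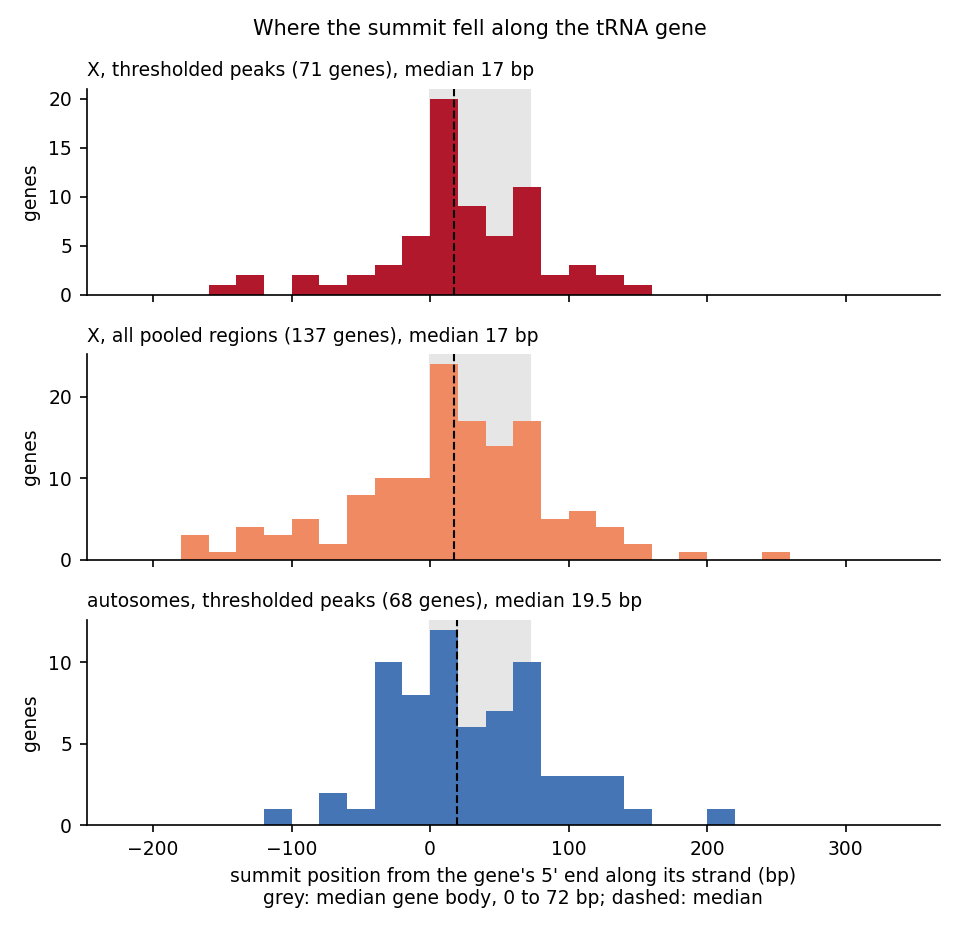
Number of tRNA genes (vertical) by the position of the summit along the gene (horizontal, bp from the 5′ end, 20 bp bins) for thresholded peaks of X, all pooled regions of X and thresholded peaks of the autosomes. Grey marks a gene of the median length of 72 bp and the dashed lines the medians, 17, 17 and 19.5 bp.

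Few summits lay close to the edge of the 200 bp flank. Just inside it were ZK154.t5 (162 bp from the gene, pooled signal 40.6), F35A5.t1 (171 bp, 29.9) and F41D9.t2 (176 bp, 32.9). Just outside were H08J11.t2 (201 bp, 45.1), C48C5.t1 (227 bp, 28.5) and C25F6.t1 (244 bp, 36.1). Of the 139 genes without a pooled region, 91 were over 1 kb from the nearest pooled summit.

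The internal promoter elements were present in nearly all members, with or without signal. An A box was found in 269 of the 276 members, a B box GTTCNANNC in 268 and its variant GATCNANNC in 5, and a run of 4 T followed the gene in 273. On either strand GTTCNANNC occurs in 17.6% of the 472 bp tiles of X. Genes with a thresholded peak had the A box in 71 of 71 and the B box in 68 of 71 cases, and genes without a pooled region in 134 and 136 of 139. The 3 peak genes lacking the usual B box, C16B8.t2, C16B8.t3 and F22F1.t6, all carry the variant.

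Upstream of the gene, GA repeats went with signal. GAGAGA, on either strand, stood within the 200 bp upstream of 34 of the 71 genes with a thresholded peak (47.9%, 36.7 to 59.3%), of 12 of 66 with a pooled region only (18.2%, 10.7 to 29.1%) and of 16 of 139 without a pooled region (11.5%, 7.21 to 17.9%). Of the 200 bp tiles of X, 9.52% hold it. Downstream it stood at 2, 4 and 7 genes of these classes (2.82%, 6.06% and 5.04%). In 32 of the 34 genes it lay within 100 bp of the gene, where 4.86% of 100 bp tiles hold it, and its median distance from the gene was 48 bp. It read as GAGAGA along the gene in 16 of the 34 and as TCTCTC in 19, with both in 1.

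**Figure D5:**
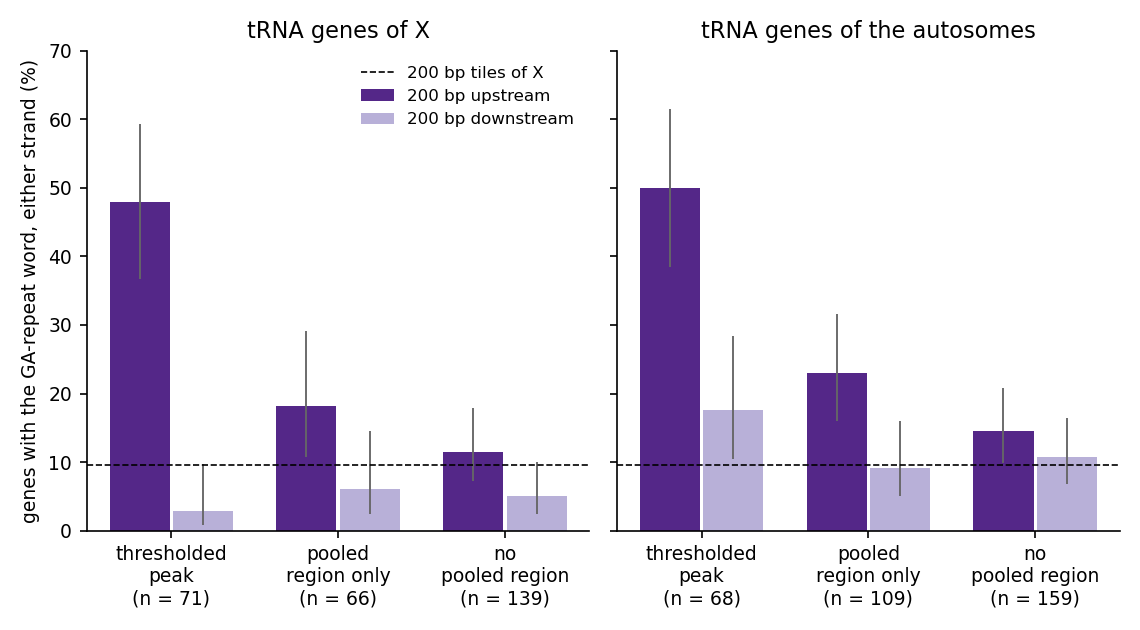
Share of tRNA genes (vertical, %) with the 6-base GA repeat on either strand in the 200 bp upstream (dark) and downstream (light), for genes of X (left) and of the autosomes (right) in the classes of signal, with 95% Wilson intervals. On X the upstream share was 47.9% with a thresholded peak and 11.5% without a pooled region, and the dashed line is the 9.52% of 200 bp tiles of X.

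Turned round, 34 of the 62 members with the upstream word had a thresholded peak (54.8%, 42.5 to 66.6%) and 37 of the 214 without it (17.3%, 12.8 to 22.9%), a difference of 37.5 percentage points (Newcombe interval 24.0 to 50.1). The contrast held among genes with no tRNA neighbour within 1 kb, at 25 of 36 (69.4%) with the word and 22 of 105 (21.0%) without. With a neighbour it was 9 of 26 (34.6%) and 15 of 109 (13.8%). Autosomal genes showed a contrast of the same direction, as 34 of 82 genes with the word had a peak (41.5%, 31.4 to 52.3%), against 34 of 254 without it (13.4%, 9.74 to 18.1%). In 20 of those 34 autosomal peak genes with the word it lay within 100 bp upstream. Downstream of autosomal genes the word was not equally frequent in the classes. It stood at 12 of 68 with a thresholded peak (17.6%, 10.4 to 28.4%), 10 of 109 with a pooled region only (9.17%) and 17 of 159 without a pooled region (10.7%).

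Upstream GC content was higher at members with signal too. Its medians were 40% in genes with a thresholded peak, 37.8% with a pooled region only and 33.5% without a pooled region, while downstream the medians were 30.0%, 30.5% and 30.0%. The median over 200 bp tiles of X is 34.5%. For the same classes of autosomal genes the upstream medians were 42.5%, 41.5% and 38.5%, and the downstream medians 38.5%, 35.5% and 34.5%. Among members with upstream GC above their median of 37.5%, 28 of 47 with the word had a peak (59.6%) and 22 of 80 without it (27.5%). Among the rest the counts were 6 of 15 (40%) and 15 of 134 (11.2%). The part of base composition in the counts of the word was otherwise not tested.

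The word GGTGTG, the core of the T-box site, was counted in the same way. It stood in the window of 7 of 71 genes with a thresholded peak (9.86%), 9 of 66 with a pooled region only (13.6%) and 9 of 139 without (6.47%), where 11.5% of the 472 bp tiles hold it. GGGCGG stood in 7 (9.86%), 8 (12.1%) and 19 (13.7%) of these classes, against 5.66% of tiles, and 15 of these 34 genes hold it in the gene body.

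The members were then set against the tRNA genes of the autosomes. A thresholded peak was found at 71 of 276 genes of X (25.7%) and at 68 of 336 autosomal genes (20.2%, 16.3 to 24.9%), a difference of 5.49 percentage points whose Newcombe interval, -1.18 to 12.2, includes 0. Pooled regions were found at 49.6% of X genes and at 52.7% (47.3 to 58.0%) of autosomal genes. The median pooled signal of genes with a region was 83.2 on X and 63.2 on the autosomes. Among the 100 highest pooled regions were the regions of 23 genes of X and of 9 autosomal genes. For the 43 bodies present on both, 58 of 185 copies on X had a thresholded peak (31.4%, 25.1 to 38.4%), against 49 of 223 on the autosomes (22%, 17 to 27.9%), a difference of 9.38 points (0.796 to 17.9). Pooled regions of the same bodies were found at 105 of the 185 copies on X (56.8%) and 131 of the 223 on the autosomes (58.7%). Copies that share a region or lie in 1 array are not independent, so these intervals are too narrow.

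Other genes of the RNA polymerase III pathway were looked up from a list of 13 genes for its machinery and products. A pooled region was found at 5 of the 13, against 20.9% of all annotated genes, and a thresholded peak at 2, against 1.61%. Those 2 were RNA genes that the polymerase reads, rpr-1, the RNA of ribonuclease P, with a pooled signal of 201 (105 in replicate 1, 99.5 in replicate 2), and mrpr-1, the RNA of ribonuclease MRP, with 192 (95.3 and 96.2). Among protein-coding genes, the shared polymerase subunits rpac-19 and rpac-40 had 55.3 and 44.8 and the TFIIIC subunit tftc-1 had 36.6 in the pooled list. In the replicates rpac-40 had 24.5 and 20.7 and tftc-1 had 27.6 and 19.4, while rpac-19 had no region in replicate 1 and 15.2 in replicate 2. The TATA-binding protein tbp-1, brf-1 of TFIIIB, the repressor mafr-1, the polymerase subunits rpc-1 and rpc-2, tftc-3, tftc-5 and snpc-4 had no pooled region. Of these, all but brf-1 and snpc-4 had a region in replicate 1, with signals from 14.5 to 24.3, and none had one in replicate 2. None of the 16 annotated 5S ribosomal RNA genes had a pooled region. Several of them carry the same name, their unique share was not computed, and how reads in repeats were placed is not stated. Lack of a region there cannot be read as lack of TBX-8.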

How the data were processed

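ChIP-seq of GFP-tagged TBX-8 was analysed in 2 biological replicates of 1 group, each with 1 technical replicate per the labels, with DNA sheared to 200 to 800 bp. The deposited lists hold regions on ce11 with the peak caller's signal, the −log10 q-value and the summit of each region. The authors called regions on each replicate and on both pooled, and a thresholded list rests on agreement between replicates, per the labels. Aligner, caller, signal definition and depth: not given in the sources used here, so intervals cover counts of genes only.

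tRNA genes came from the Ensembl release 115 annotation of WBcel235, the assembly also called ce11, and names and products from RefSeq, which matched all 276 members. Regions were given to genes by summit within the gene body and 200 bp either side, a step tested on simulated data. A gene with several regions took the highest signal. No simulated gene had several regions, so that choice was not tested. An anticodon was read from the gene sequence. A gene body counted as copied when another nuclear tRNA gene had the same sequence over its whole length. The A box was searched by its usual 11-base consensus, and a T run of 4 within 50 bp downstream. Words were searched on both strands. Scripts used Python 3.11.15, numpy 2.4.6, pandas 2.3.3, scipy 1.17.1, biopython 1.88 and matplotlib 3.10.9.

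Shares carry 95% Wilson intervals, differences of shares Newcombe intervals and medians order-statistic intervals. No test between conditions was possible with 1 group, and genes are not replicates, so no p-value is given. The members, the words and the gene lists were chosen with earlier results of these data known. Genes named are the 15 with the highest pooled signal, the highest member of each amino acid, the 5 whose replicate ranks differ most, those nearest the edge of the flank and the 5 largest groups within 1 kb (1 tie by position). Identical copies of them, single-copy genes and sequence examples were named after their values were seen. Alternatives changed the flank, the list, the threshold and the counting of shared or identical genes, and some were added after the data were seen. U6 genes were not analysed here.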

Additional observations from a re-analysis of the deposited data

How the results depend on the processing

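Of the 75 alternative values over 11 results, 53 were counted as unchanged, 21 as moved and 1 as reversed in sign. Unchanged meant within the interval of the value reported. The number of amino acids with a peak has no interval, and its alternatives were all equal to it. The excess of X over autosomes in thresholded peaks kept its sign in every alternative run for it. It ran from 3.12 points without replicate 2 (8.80 without replicate 1) to 9.03 points with the X genes of 8 to 10 Mb left out. The run at q below 0.05 could not differ, since all 521 thresholded peaks passed it. Counting all pooled regions was not among these runs. By that count the share was lower on X, at 137 of 276 genes against 177 of 336 on the autosomes. All 20 amino acids had a peak, and single-copy genes had the lower share, in each alternative run for them. For the amino acids the run with all pooled regions could not differ. Every gene with a thresholded peak also had a pooled region, and no more than 20 amino acids can be counted. For intronic against other genes the difference turned from -5.12 to 1.64 points when all pooled regions were counted, and the cause was not tested. With a flank of 0 bp the pooled share was 25.4%, the thresholded share 15.9% and the share in both replicates 9.78%. That last share was 34.1% at 100 bp and 49.3% at 500 bp, where the pooled share was 59.4%, and 34.8% with summits within 100 bp. At q below 0.05 the pooled share was 28.6%, its median signal 115 and the share in both 24.6%. With the 260 highest peaks the pooled and the thresholded share were both 18.5%, the median signal 146 and the share in both, from the 260 highest regions of each replicate, 14.1%. With 1 gene per identical body (106 bodies) the pooled share was 58.5%, its median signal 120, the thresholded share 40.6% and the share in both 53.8%, as the highest copy stands for each body. The median signal was 37.6 without replicate 1 and 40.6 without replicate 2, on the scale of another list. GAGAGA in the gene body alone stood at 2.82% of genes with a peak. No value for both replicates exists without 1 of them. No paired analysis was possible because the design holds 1 group. Alternatives added after seeing the data left the contrast of the upstream word between 31.7 and 48.5 points. Genes with a tRNA neighbour within 1 kb and the copy classes were not among these runs. With a neighbour the thresholded share was 34.6% with the word and 13.8% without it. Among single-copy genes it was 2 of 10 (20%) and 4 of 47 (8.51%). Among genes with identical copies it was 32 of 52 (61.5%) and 33 of 167 (19.8%). Without the 16 genes whose windows were under 80% unique the thresholded share was 27.3%.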

Other observations

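Some small classes of members are given as values. An intron was read in 12 members, 6 of them the identical Tyr genes, and 5 of the 12 had a pooled region and 4 a thresholded peak (C04A11.t1, C02B4.t1, C02B4.t2 and R11.t1). Of the 3 Met genes with the variant B box GATCNANNC, F22F1.t6 had a pooled signal of 143, E01H11.t1 had 63.5 and F38E9.t1 had no pooled region. The 7 members without an A box had 2 pooled regions and 0 thresholded peaks, which allows a share of up to 35.4% by the Wilson interval. None of the 3 members without a product name in RefSeq had a pooled region. A protein-coding start lay within 500 bp of 30 members, of which 7 had a thresholded peak (23.3%, 11.8 to 40.9%), against 64 of the other 246 (26%, 20.9 to 31.8%).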
